A study of Homo sapiens with 6 samples.

Results

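The genes described here encode 8 RNA-binding proteins that set how long messenger RNAs last: ZFP36, ZFP36L1, ZFP36L2, KHSRP, ELAVL1, ZC3H12A, RC3H1 and RC3H2. Their transcripts were chosen by name, as every probe set (a group of short probes read as one value) to which the platform annotation gives one of these symbols and no other. That rule found 27 of the 49293 probe sets that are not controls, for 8 of the 18132 genes with a probe set. The rule itself uses no measured value.

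Many short-lived messenger RNAs, such as those of cytokines, growth factors and early transcription factors, carry AU-rich elements in the 3′ untranslated region. Proteins of the ZFP36 family bind these elements through a pair of CCCH zinc fingers and bring in the CCR4-NOT complex, which removes the poly(A) tail, whereas ELAVL1 (HuR) binds similar sequences and generally stabilises the transcript. ZC3H12A (Regnase-1) and the Roquins RC3H1 and RC3H2 act on stem-loops in partly the same transcripts, and in epithelial cells, as elsewhere, these proteins restrain inflammatory messages.

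The cells were ARPE-19, an established line from human retinal pigment epithelium, and each sample was hybridised to 1 Affymetrix array. In the 3 h group (3 arrays), cells that carried a transfected green fluorescent protein (GFP) plasmid received 10 mU/ml glucose oxidase for 3 h, starting 48 h after transfection. This enzyme releases hydrogen peroxide as it oxidises glucose. The 0 h group (3 arrays) was transfected and received no enzyme. The sample descriptions of the 3 h arrays instead name GFP with satellite alpha, a centromeric repeat, as the transfected construct, so the groups may differ in the construct too, and its effect cannot be told apart from that of the enzyme. No genotype or age is given, nothing states that replicates were separate cultures, and p-values may therefore measure only technical spread. Handling for 3 h without the enzyme has no group of its own.

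Values are log2 expression values, and a change is the 3 h mean minus the 0 h mean. "Called" means an adjusted p under 0.05 in limma, fitted over the 29576 probe sets whose mean over the 6 arrays reached a floor of 4.64, the 40th percentile. Of these, 51.4% were called, 25.6% higher and 25.8% lower, and the groups did not overlap in 60.6% (30.1% higher, 30.5% lower), so a call is common in this comparison. The median SD of a tested probe set was 0.09 among 3 h arrays and 0.07 among 0 h arrays, and the number of arrays limits the precision. Arrays of a group correlated with each other at 0.994 or more, and a 3 h array with a 0 h array at 0.974 to 0.979. Controls moved too: the 5′ minus 3′ difference of actin was -1.20 ± 0.06 in the 3 h group and -2.06 ± 0.07 in the 0 h group (SD, n = 3 each, two-sided exact permutation p = 0.1, the smallest that 3 against 3 arrays allow). The median of 24 poly-A spike probe sets was 6.43 ± 0.19 on the 3 h arrays and 7.08 ± 0.11 on the 0 h arrays (n = 3 each). The GAPDH 5′ minus 3′ difference was -0.13 ± 0.04 at 3 h and -0.39 ± 0.05 at 0 h. The median of 18 hybridization spike probe sets was 9.84 ± 0.04 at 3 h and 10.05 ± 0.07 at 0 h. These shifts lie between the same groups that are compared for every member below, and their part in the results was not tested. Of 15 epithelial and pigment epithelium markers, 11 were above the floor, among them keratin genes KRT8 and KRT18 and the pigment-cell factor gene MITF. BEST1, PMEL, TYR, OTX2, SERPINF1, TTR, TJP1 and CDH2 were above it too. RPE65, RLBP1, LRAT and MERTK, which mark mature retinal pigment epithelium, were under it. By brightest probe set, 5 of the 11 were called higher, 5 were not called and SERPINF1 was called lower (-0.405). Of all genes, 19.9% were called higher and 29.8% lower. The summed linear signal of all 15, which weighs the bright keratin genes most, was 12710 to 13250 at 3 h and 10510 to 10720 at 0 h. That of 7 photoreceptor and neuronal markers, with RCVRN under the floor, was 381 to 405 at 3 h and 448 to 461 at 0 h. By brightest probe set, 3 of the 6 tested were called lower: PDE6B, SYT1 and GAP43 (-0.31). Averaged over their tested probe sets, PDE6B stood at -0.08 and SYT1 at 0.06. The sum of 7 blood and endothelial markers, with PTPRC, CD14 and CDH5 under the floor, was 195 to 204 at 3 h and 183 to 208 at 0 h. In such bulk samples, fewer cells of a type and less RNA per cell cannot be told apart.

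Start-site sequences are given for 4 of the members, because they set genes whose probe sets were mostly called higher (KHSRP, ZFP36L1) beside genes with no call (ZFP36, RC3H2). RefSeq promoter windows on GRCh38.p14 were matched by symbol for 6 of the 8 genes, with 2 start sites for ZFP36L1. No window was matched for ZFP36L2 or ELAVL1, although both were higher on all their tested probe sets. The 250 bases before each start are written 5′ to 3′ on the gene's strand, and capitals mark every match, on either strand, to the 8 motifs searched.
KHSRP, chr19:6424812-6425061, minus strand: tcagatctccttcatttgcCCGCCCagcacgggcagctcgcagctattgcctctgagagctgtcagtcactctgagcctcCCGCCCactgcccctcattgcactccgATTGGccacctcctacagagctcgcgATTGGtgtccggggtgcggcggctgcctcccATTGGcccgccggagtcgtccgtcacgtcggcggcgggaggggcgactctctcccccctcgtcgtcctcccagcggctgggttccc
ZFP36L1, chr14:68793417-68793666, minus strand: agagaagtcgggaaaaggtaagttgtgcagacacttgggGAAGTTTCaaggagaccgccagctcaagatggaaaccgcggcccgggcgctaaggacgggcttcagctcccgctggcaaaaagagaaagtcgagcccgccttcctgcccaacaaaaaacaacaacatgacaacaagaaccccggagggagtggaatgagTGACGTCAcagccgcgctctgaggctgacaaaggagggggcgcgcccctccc
ZFP36, chr19:39406597-39406846, plus strand: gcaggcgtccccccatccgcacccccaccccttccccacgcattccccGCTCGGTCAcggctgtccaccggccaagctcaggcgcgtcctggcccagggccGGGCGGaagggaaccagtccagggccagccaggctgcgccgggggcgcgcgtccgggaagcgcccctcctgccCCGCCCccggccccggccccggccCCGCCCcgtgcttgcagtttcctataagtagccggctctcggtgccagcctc
RC3H2, chr9:122905360-122905609, minus strand: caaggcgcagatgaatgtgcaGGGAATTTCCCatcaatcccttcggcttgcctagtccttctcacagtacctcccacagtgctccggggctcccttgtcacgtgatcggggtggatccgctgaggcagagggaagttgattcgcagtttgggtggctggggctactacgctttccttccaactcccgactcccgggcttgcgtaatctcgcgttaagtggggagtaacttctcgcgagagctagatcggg

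The motifs were the TATA box (TATAAA), the CCAAT box (CCAAT), the GC box (GGGCGG), the cyclic AMP response element (TGACGTCA), the AP-1 site (TGANTCA), the antioxidant response element (TGACNNNGC), a kappa B-type site (GGGA, 2 further bases, TTCC) and the heat shock element (GAANNTTC). KHSRP holds 3 CCAAT boxes, all on the opposite strand, which begin 143, 117 and 86 bases before the start, and 2 GC boxes. A CCAAT box is found in 32% of all 35116 RefSeq windows of this length and a GC box in 42.6%. The printed ZFP36L1 window holds the full cyclic AMP response element, 52 to 45 bases before the start, which 1.65% of all windows hold, and a heat shock element, held by 5.78%. ZFP36 holds 3 GC boxes and an antioxidant response element that begins 202 bases before the start, a motif of 10.9% of windows. The second ZFP36L1 window, not printed, holds this element too, beginning 138 bases before its start, and a CCAAT box. RC3H2 holds 2 kappa B-type matches that overlap, beginning 229 and 228 bases before the start, where 1.4% of windows hold any. ZC3H12A, not printed, holds a TATA box 27 bases before its start (10.7% of windows) and 5 GC boxes, and 78.8% of its bases are G or C, against a median of 58.0% over all windows. RC3H1 has 28.4% G or C and no CpG. The AP-1 letters occur in 0 of the 7 member windows and in 6.57% of all. These matches describe letters in the windows and say nothing of which factor was bound.

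Of the 27 member probe sets, 24 reached the floor and were tested. Called higher were 17 (70.8%, beside 25.6% of all tested) and called lower were 3 (25.8% of all tested), while 4 were not called. Their median change was 0.41, beside 0.01 over all tested probe sets, and 6 of the 24 (25%) were at least 2-fold higher, beside 414 (1.4%) of all tested. Probe sets of a gene share its transcript and are not independent. Those called higher include 11715816_at of ZFP36L2, which reached the floor only through its 3 h values. By its brightest probe set, 5 of the 8 genes were called higher and 1 lower, beside 19.9% higher and 29.8% lower, 49.7% in all, of 12221 genes. The list was chosen with earlier results of these data known, so these shares describe it and support nothing further.

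**Figure D1:**
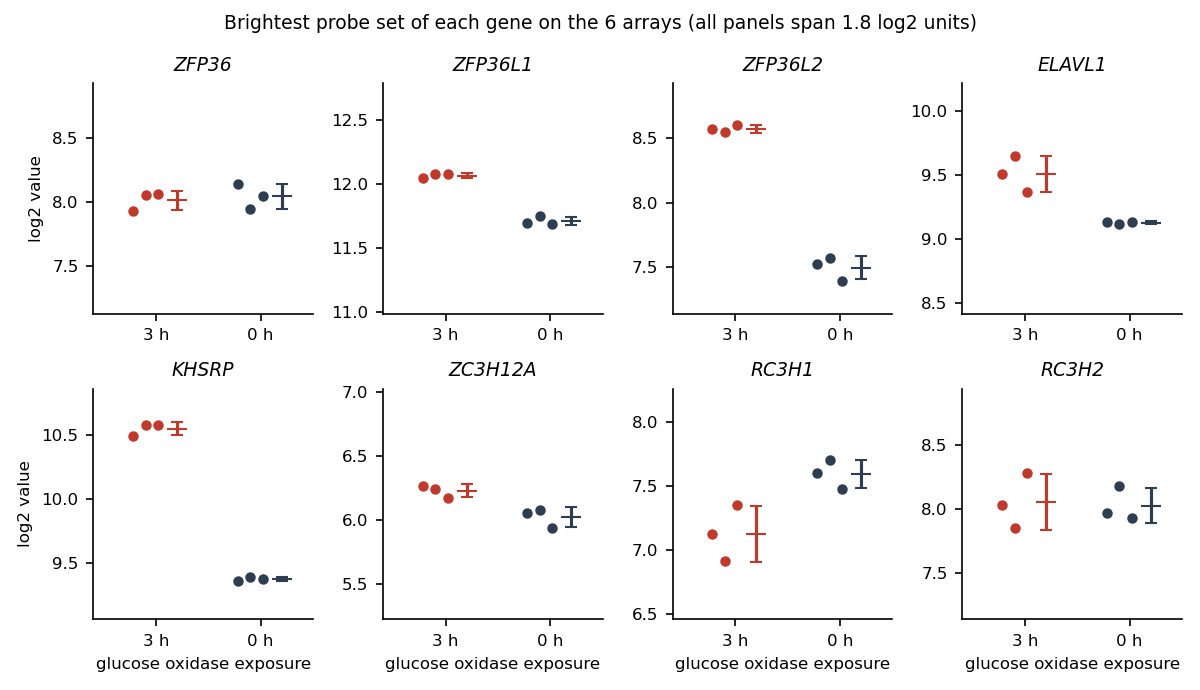
log2 value (vertical axis) of the brightest probe set of each of the 8 genes on the 3 arrays at 3 h (red, left) and the 3 arrays at 0 h (dark, right), with mean and SD beside the points. Every panel spans the same range: KHSRP and ZFP36L2 stand about 1 log2 unit higher at 3 h, ZFP36 and RC3H2 overlap between the groups, and RC3H1 is lower at 3 h.

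Within the ZFP36 family, ZFP36L2 transcripts were higher at 3 h, ZFP36L1 transcripts were higher by less on most probe sets, and ZFP36 (tristetraprolin), the best studied member, showed no call. ZFP36L2 encodes a destabilising protein known for its roles in blood cell precursors and the oocyte. Its brightest probe set, 11757420_s_at, read 8.57, 8.55 and 8.61 on the 3 h arrays, against 7.52, 7.56 and 7.39 on the 0 h arrays. Every 3 h array lay above every 0 h array. The change was 1.085 (SE 0.07, limma adjusted p = 2.09e-05), or 2.12-fold higher. Probe set 11715818_at read 7.72, 7.66 and 7.59 at 3 h, against 6.37, 6.34 and 6.06 at 0 h, a change of 1.40 (SE 0.09), which ranked 79 from the top of all 29576 tested. Probe set 11715817_at read 7.243, 6.996 and 7.155 at 3 h and 5.996, 6.030 and 6.138 at 0 h, a change of 1.077 (SE 0.08). The last of the 4, 11715816_at, is dim: it read 4.98, 5.31 and 5.35 at 3 h and 4.59, 4.55 and 4.47 at 0 h, a change of 0.68. Its 0 h mean of 4.54 lies under the floor, so it was tested only through its 3 h values. With it left aside, the other 3 probe sets of ZFP36L2 were all at least 2-fold higher, without overlap of the groups.

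ZFP36L1, a paralogue that also promotes decay and restrains proliferation in several tissues, had 6 tested probe sets, of which 5 were called higher and 1 lower. The brightest, 11758557_s_at, read 12.05, 12.08 and 12.08 at 3 h, against 11.70, 11.75 and 11.69 at 0 h. These groups were tight and well apart. Its change was 0.35 (SE 0.05, limma adjusted p = 0.00108), or 1.28-fold higher. Probe set 11716115_s_at read 7.42, 7.48 and 7.49 at 3 h and 6.87, 6.89 and 6.85 at 0 h, a change of 0.60 (SE 0.06, adjusted p = 0.000111). The further probe sets 11746561_a_at, 11746562_x_at and 11749937_x_at changed by 0.62, 0.58 and 0.27. The call of 11749937_x_at ended without replicate 1 or 2 at 3 h (0.20, 0.26) and without replicate 1 or 2 at 0 h (0.25, 0.26). The exception is 11726889_at, which read 6.01, 6.09 and 5.92 at 3 h, against 6.24, 6.24 and 6.24 at 0 h, and was called lower at -0.24 (SE 0.06, adjusted p = 0.0144). Its annotation rests on a RefSeq accession that the gene table used here lists for no gene, whereas every other member probe set with a RefSeq accession matched its own symbol there. Calls in both directions among the probe sets of a gene were found for 431 of 7120 genes with at least 2 tested probe sets (6.05%).

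ZFP36, whose transcript is itself an early response message with AU-rich elements, has 1 probe set. It read 7.93, 8.06 and 8.06 on the 3 h arrays, against 8.15, 7.95 and 8.04 on the 0 h arrays. The groups overlapped. The change was -0.03, with a 95% interval of -0.20 to 0.14 and a limma adjusted p of 0.755, so a change as large as that of ZFP36L2 lies outside the interval. It turned to 0.013 without replicate 1 at 3 h and to 0.021 without replicate 1 at 0 h.

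The difference between paralogues was taken within each array and compared over arrays, for the brightest probe sets and for 5 pairs in all. The brightest probe sets of ZFP36, ZFP36L1, ZFP36L2 and KHSRP are among those named as shared or cross-hybridizing. The change of ZFP36 was smaller than that of ZFP36L2 by 1.11 log2 units and smaller than that of ZFP36L1 by 0.38. ZFP36L1 changed by 0.73 less than ZFP36L2. For each of these 3 pairs the within-array differences did not overlap between the groups, and the two-sided exact permutation p was 0.1, also after adjustment over the 5 pairs, which is the smallest that 3 against 3 arrays allow.

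KHSRP, a protein with KH domains that binds AU-rich elements, recruits decay enzymes and also aids the maturation of some microRNAs, was higher at 3 h on all 4 of its probe sets. The brightest, 11743521_s_at, read 10.49, 10.58 and 10.58 on the 3 h arrays, against 9.36, 9.39 and 9.38 on the 0 h arrays. The gap between the groups was far wider than the spread within them. The change was 1.17 (SE 0.06, limma adjusted p = 1.29e-05), or 2.26-fold higher, and ranked 207 from the top of all tested probe sets. Probe set 11757710_x_at read 10.09, 9.95 and 10.18 at 3 h and 9.01, 9.08 and 9.07 at 0 h, a change of 1.02 (SE 0.07). The pair with lower signal agreed in direction: 11746598_a_at read 5.89, 5.80 and 5.93 at 3 h and 4.93, 4.51 and 4.98 at 0 h, a change of 1.07 (SE 0.12). Probe set 11754264_a_at read 5.64, 5.40 and 5.54 at 3 h and 4.77, 4.74 and 5.12 at 0 h, a change of 0.65 (SE 0.11). KHSRP was among 30 of 2027 genes with at least 4 tested probe sets (1.48%) for which all were called higher by at least 1.5-fold each. ZFP36L2 entered that count only through the dim 11715816_at, which reached the floor only through its 3 h values. Without it, ZFP36L2 has too few tested probe sets to be counted.

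ELAVL1 encodes HuR, the ubiquitous member of the Hu family, which protects many AU-rich transcripts. It was higher at 3 h on its 3 tested probe sets by similar amounts. The brightest, 11716530_at, read 9.51, 9.65 and 9.37 at 3 h, against 9.14, 9.12 and 9.14 at 0 h. Its change was 0.38 (SE 0.08, limma adjusted p = 0.00386), or 1.30-fold higher. Probe set 11747207_a_at read 8.74, 8.73 and 8.74 at 3 h and 8.29, 8.27 and 8.31 at 0 h, a change of 0.45 (SE 0.05, adjusted p = 0.000327), and 11716529_a_at changed by 0.37. The groups did not overlap on any of these 3. The remaining pair of ELAVL1 probe sets lay under the floor: 11716528_at averaged 4.70 ± 0.28 at 3 h and 4.47 ± 0.22 at 0 h, and 11716531_at averaged 3.31 ± 0.04 at 3 h and 3.57 ± 0.15 at 0 h (SD, n = 3 each). In a fit with no floor neither passed, with limma adjusted p-values of 0.311 and 0.0583. With the floor at the 20th percentile, 4 member probe sets were called lower, beside 3 with the main floor, and the 24 main ones kept their calls. The added call was of 11716531_at (-0.26), against the direction of the other ELAVL1 probe sets. The only other lower member under the main floor, 11761362_at of RC3H2, had a limma p of 0.709 with no floor. The change of ELAVL1 was smaller than that of KHSRP by 0.80 log2 units within arrays, with no overlap between the groups and a two-sided exact permutation p of 0.1.

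**Figure D2:**
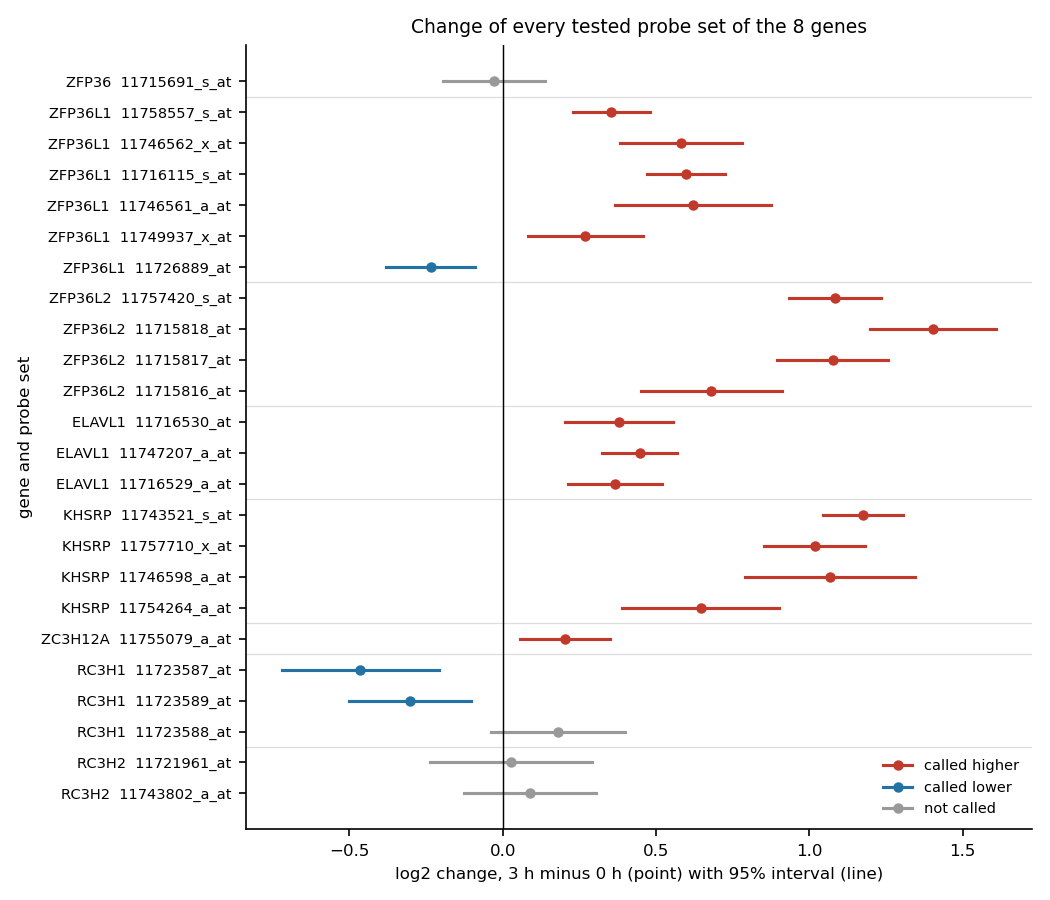
log2 change, 3 h minus 0 h (horizontal axis), of the 24 tested probe sets, grouped by gene, with 95% intervals from limma; red was called higher, blue lower and grey not called. KHSRP and ZFP36L2 lie farthest right, ELAVL1 probe sets cluster between 0.37 and 0.45, and 1 ZFP36L1 and 2 RC3H1 probe sets, all called lower, lie left of 0, as does the uncalled ZFP36 at -0.03.

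Changes over all genes ran with local gene density: tested probe sets of genes with at least 22 protein-coding neighbours within 500 kb had a median change of 0.10, and those with at most 6 neighbours one of -0.11. By this count ELAVL1 has 36 neighbours, ZFP36 33 and KHSRP 23, whereas ZFP36L2 has 6 and ZFP36L1 has 3. With that trend removed, a step added once the data had been seen, the brightest probe sets of KHSRP and ZFP36L2 stood at 1.06 and 1.16 and that of ELAVL1 at 0.25, each still called (limma). ZFP36 stood at -0.16 on that scale and was still not called (adjusted p = 0.1).

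Among the proteins that act on stem-loops, RC3H1 transcripts were lower on 2 of 3 probe sets, RC3H2 showed no call, and ZC3H12A was slightly higher. ZC3H12A is an endonuclease that cleaves inflammatory messages such as that of interleukin 6. Its only probe set, 11755079_a_at, read 6.27, 6.24 and 6.17 at 3 h, against 6.06, 6.08 and 5.94 at 0 h. The groups stood apart by little. The change was 0.20 (SE 0.06, limma adjusted p = 0.0288), and the call ended without replicate 1 or 2 at 3 h (0.18, 0.19) and without replicate 1 or 3 at 0 h (0.22, 0.16). It ended as well with quantile normalization (0.17), with median centring (0.17), without the floor (0.20) and with trend and robust moderation (0.20).

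RC3H1 encodes Roquin-1, which binds stem-loops called constitutive decay elements and recruits deadenylases. Its brightest probe set, 11723587_at, read 7.13, 6.91 and 7.35 on the 3 h arrays, against 7.60, 7.70 and 7.48 on the 0 h arrays. All 3 h arrays were lower, with a wider spread than at 0 h. The change was -0.46 (SE 0.11, limma adjusted p = 0.00891), or 1.38-fold lower. Probe set 11723589_at read 5.22, 5.42 and 5.51 at 3 h and 5.59, 5.72 and 5.75 at 0 h, a change of -0.30 (SE 0.09, adjusted p = 0.0194). That call ended without replicate 2 or 3 at 0 h (-0.29, -0.27). Probe set 11723588_at went the other way without a call: it read 4.9960, 5.0331 and 5.0142 at 3 h and 4.9889, 4.9035 and 4.6124 at 0 h, a difference of 0.18 (adjusted p = 0.149). Averaged over its 3 probe sets, RC3H1 stood at -0.20 (adjusted p = 0.0404).

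RC3H2, the paralogue Roquin-2, with which Roquin-1 shares functions in mouse immune cells, read 8.03, 7.85 and 8.28 at 3 h on 11721961_at, against 7.97, 8.18 and 7.93 at 0 h. On 11743802_a_at it read 7.75, 7.81 and 8.08 at 3 h, against 7.78, 7.88 and 7.72 at 0 h. The groups overlapped on both probe sets. The differences were 0.03 (95% interval -0.24 to 0.29) and 0.09 (-0.13 to 0.30), with limma adjusted p-values of 0.852 and 0.460, and both turned negative without replicate 3 at 3 h (-0.086, -0.012). The third probe set, 11761362_at, averaged 3.46 ± 0.31 at 3 h and 3.52 ± 0.20 at 0 h, under the floor. Within arrays, the change of RC3H1 was 0.49 log2 units below that of RC3H2 without overlap of the groups (two-sided exact permutation p = 0.1), and 0.25 below it with the mean of each gene's tested probe sets.

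**Figure D3:**
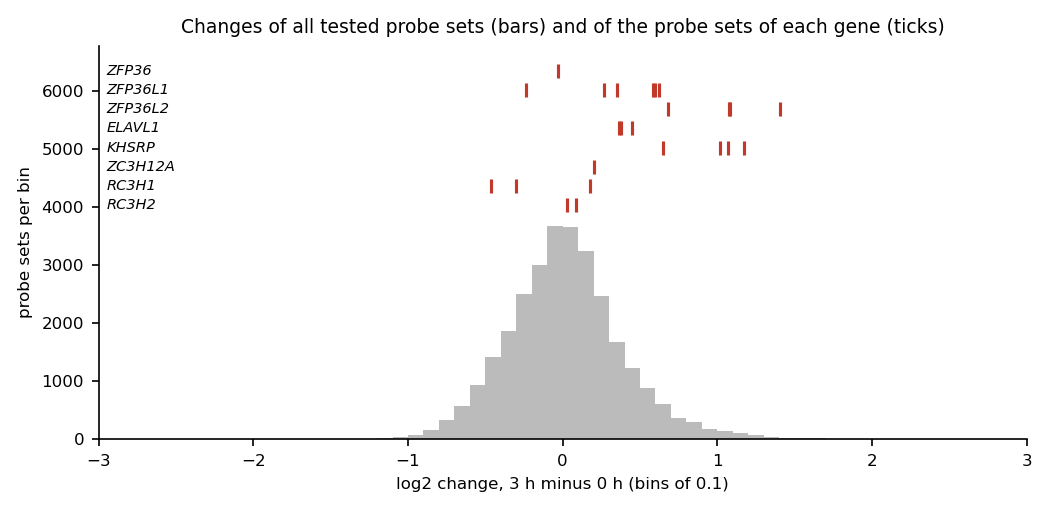
Number of tested probe sets (bars, vertical axis) by log2 change, 3 h minus 0 h, in bins of 0.1, with a red tick above for each tested probe set of the 8 genes. The bars centre near the overall median of 0.01, ZFP36 and RC3H2 lie over that centre, and KHSRP and ZFP36L2 lie over the sparse right side.

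Other genes of the decay pathway were read from lists that were chosen with earlier results of these data known, each gene by its brightest probe set, beside the 19.9% higher and 29.8% lower of all genes. Of 20 tested binders of AU-rich or other 3′ untranslated sequences, 7 were called higher, 4 lower and 9 neither (median 0.04, beside -0.04 over all genes). CELF1, which binds GU-rich elements and promotes decay, rose by 0.91 (SE 0.06), HNRNPA0 rose by 0.57 and PTBP1, a splicing regulator, by 0.55. IGF2BP3, an oncofetal binder, fell by 0.65, PUM2, a Pumilio repressor, by 0.45 and TIA1, a translational silencer of AU-rich messages, by 0.45. Averaged over their tested probe sets, IGF2BP3 stood at -0.20 and PUM2 at -0.09. Of 5 paralogues and partners of ZC3H12A, UPF1, the helicase with which it acts, rose by 0.58, while TANK fell by 0.50 and ZC3H12C by 0.21. Averaged over their probe sets, TANK stood at -0.20 and ZC3H12C at -0.14. ZC3H12C was not called without replicate 1 or 2 at 0 h (-0.20 each), so that without either array 1 gene of this list was called lower.

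Genes of the RNA decay machinery were called lower more often than higher, as were all genes by their brightest probe set. Of 17 genes of the RNA exosome and SKI complex, which degrade RNA from the 3′ end, 9 fell, 1 rose and 7 were not called (median -0.21). DIS3, a catalytic subunit, fell by 0.52, EXOSC1 by 0.47 and the helicase gene MTREX by 0.42 (-0.27 averaged over its probe sets), while EXOSC6 rose by 0.48. The count of 9 became 5 without replicate 2 at 3 h, without replicate 1 at 0 h, with no filter on dim probe sets and at a threshold of 0.01. Among 18 genes of decapping and 5′ decay 6 fell and 4 rose (median -0.03). The decapping enzyme gene DCP2 fell by 0.68, LSM3 by 0.57 and LSM1 by 0.46, and PATL1, a decapping scaffold, rose by 0.62, EDC4 by 0.25 and DCPS by 0.24. EDC4 was not called without replicate 1 or 2 at 0 h (0.24, 0.22). Of 15 genes listed for deadenylation, 10 were not called, 3 fell and 2 rose (median -0.06). That list holds genes of the CCR4-NOT, PAN2-PAN3 and PARN deadenylases and also PABPC1. PAN3 fell by 0.39, CNOT10 by 0.28 and CNOT6 by 0.18, while the poly(A)-binding protein gene PABPC1 rose by 0.30 (0.47 averaged over its probe sets) and CNOT3 by 0.28 (0.10 likewise). The changes of CNOT10 and CNOT6 rest on their brightest probe sets, since the averages over all tested ones were -0.03 and 0.01. CNOT6 was not called without replicate 3 at 3 h (-0.17), without replicate 1 or 3 at 0 h (-0.18, -0.17) or with no filter on dim probe sets (adjusted p = 0.0598). The count of deadenylation genes called lower was 5 with median centring, 5 with trend and robust moderation and 1 without shared probe sets.

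Of 13 tested genes for enzymes that modify or cleave the members, 5 rose and 4 fell. MAPKAPK2, the kinase that phosphorylates and inactivates ZFP36, rose by 0.50 (0.89 averaged over its probe sets), CARM1, which methylates HuR, by 0.59 and IRAK1, a kinase upstream of the destruction of Regnase-1, by 0.61. MALT1, the protease that cleaves Regnase-1 and the Roquins, fell by 0.44, CHEK2, a kinase of HuR, fell by 0.54 and ATM fell by 0.65. Averaged over their probe sets, MALT1 stood at -0.20 and ATM at -0.38. MAPK14 was not analysed here.

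Transcripts known to carry AU-rich elements moved in both directions. Of 25 tested, 8 were called higher, 5 lower and 12 neither (median 0.03), and TNF and PTGS2 lay under the floor. With trend and robust moderation 8 were called lower. CCND1, a cell cycle regulator, averaged 11.61 ± 0.12 at 3 h and 10.23 ± 0.05 at 0 h (SD, n = 3 each), a change of 1.38 (SE 0.07, limma adjusted p = 1.70e-05). LIF, a cytokine, rose by 0.95 and CCL2, a chemokine, by 0.58. CXCL1 fell by 0.76 (-0.43 averaged over its probe sets), IL1A by 0.72 and CCL20 by 0.57. Of 12 tested stem-loop targets of Regnase-1 and Roquin, a list that shares CXCL1, CXCL2, CXCL3, IL6 and IER3 with the AU-rich list, 3 were called higher and 2 lower (median -0.02). UCP2 rose by 0.56 (0.15 averaged over its probe sets) and NFKBID by 0.24 (0.07 likewise). The transferrin receptor gene TFRC fell by 0.24, or -0.10 averaged likewise. ZC3H12A, which targets its own message, and CXCL1 are the other calls. The count called higher was 5 with the floor at the 20th percentile and 1 with trend and robust moderation, under which NFKBID was not called (adjusted p = 0.0523). IL6, the classic target, averaged 8.03 at 3 h and 8.18 at 0 h and was not called (adjusted p = 0.0773).

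**Figure D4:**
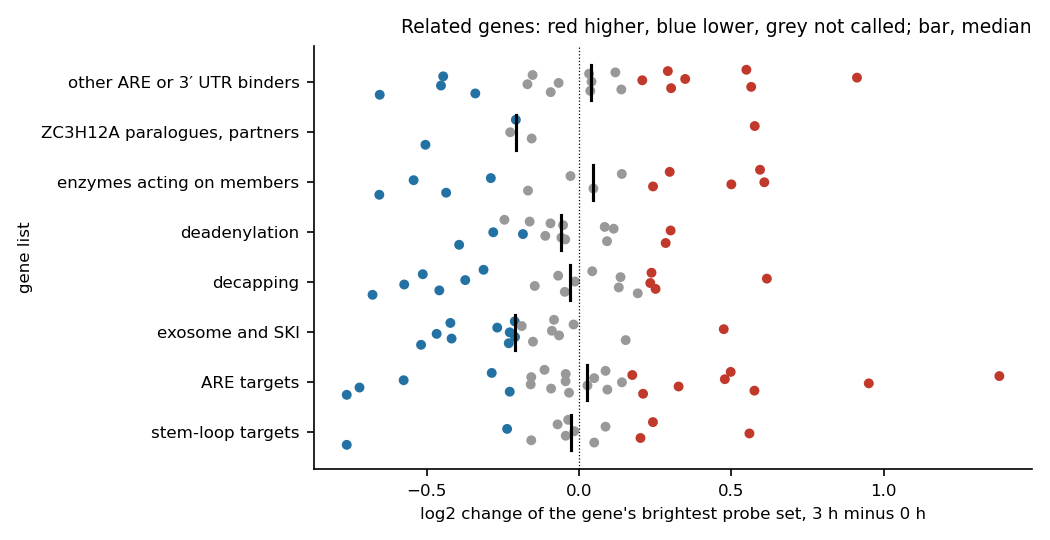
log2 change, 3 h minus 0 h (horizontal axis), of each gene's brightest probe set in the 8 lists of related genes, with the median of each list as a bar; red was called higher, blue lower and grey not called. The exosome list has its median at -0.21 and 9 of 17 genes in blue, while the AU-rich targets run from -0.76 for CXCL1 to 1.38 for CCND1.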

How the data were processed

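Total RNA of 6 ARPE-19 samples was labelled with biotin by 3′ in vitro transcription for Affymetrix arrays, per the labels' protocols. The table the authors deposited holds a log2 expression value for each of 49372 probe sets; the scale was read from the values (1.54 to 14.3, medians of 5.30 to 5.34). MAS5 and RMA are named, per the submitters' processing notes, without version, role or order. Values forced to one distribution, as RMA gives, hide a change of total RNA.

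Groups came from the titles. Platform annotation gave 44988 probe sets a single symbol, 1832 several and 2473 none; 79 controls were left out. Members and gene lists were chosen with earlier results of these data known. All probe sets of the members are described, and of each other list up to 3 called higher and 3 called lower with the smallest p. limma 3.58.1 (R 4.3.3; lmFit, eBayes) was fitted to the 29576 probe sets at or above the 40th percentile, with Benjamini-Hochberg adjustment over all, and checked on simulated data. List counts are of this fit. Alternatives covered normalization, filter, moderation, weights, the replicate block, fold and p thresholds, probe set choice and each array left out. After the data were seen, a further alternative removed a loess trend (span 0.5) on local gene density, counted as protein-coding neighbours within 500 kb. Promoters are RefSeq's; figures used matplotlib 3.10.9.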

Additional observations from a re-analysis of the deposited data

How the results depend on the processing

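All 4 probe sets of KHSRP, all 4 of ZFP36L2 and the 3 tested ones of ELAVL1 kept their direction and call under every alternative in which they were tested, apart from the 1.5-fold minimum, which the 3 of ELAVL1 did not reach. With that minimum, 10 member probe sets were called higher and 0 lower, of 1987 higher and 1334 lower in all. At a threshold of 0.01, 15 member probe sets were called higher and 1 lower, of 5220 higher and 5149 lower in all. Without probe sets named as shared or cross-hybridizing, 16 member probe sets were tested, of which 10 were called higher and 3 lower. In all, 4927 were called higher and 4667 lower, with fewer probe sets tested. That setting left out the only probe set of ZFP36 and the brightest of ZFP36L1, ZFP36L2 and KHSRP. KHSRP was then read only from 11746598_a_at and 11754264_a_at, its pair with lower signal. ZFP36L1 kept 11746561_a_at, called higher, and 11726889_at, called lower. With 1 probe set per gene, 5 genes were called higher and 1 lower, both by the brightest (2514 higher and 3759 lower in all) and by the mean of the tested ones (2978 and 3564 in all). Leaving out each array in turn left 15 to 17 member probe sets called higher and 2 to 3 lower. In all, 6228 to 7241 probe sets were then called higher and 6066 to 7458 lower. No member probe set changed its call with the replicate block (of the related genes named, CNOT6 did, adjusted p = 0.06), where 6892 probe sets were called higher and 6970 lower; same-numbered arrays did not deviate together (correlations -0.01, -0.04 and -0.19), so the titles' numbers were not taken to pair the arrays.

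Uncalled differences near 0 changed sign. RC3H2 on 11721961_at stood at -0.0088 with median centring, -0.0031 with array weights and -0.0854 with the density trend removed, and ran from -0.0856 to 0.1292 as each array was left out. On 11743802_a_at it stood at -0.0258 with the density trend removed and ran from -0.0118 to 0.1551 as each array was left out. ZFP36 ran from -0.0792 to 0.0206 likewise. Removing the density trend also ended the calls of ZC3H12A (0.15) and of 11726889_at of ZFP36L1 (-0.16), and of the related genes CNOT3 (0.15), EDC4 (0.12), NFKBID (0.11) and ZC3H12C (-0.13). With that trend removed, 5 transcripts with AU-rich elements, 2 decapping genes, 1 deadenylation gene and 1 stem-loop target were called higher, and 5 deadenylation genes lower. Over all tested probe sets, 6415 were then called higher and 7520 lower. Without shared probe sets, 3 decapping genes, 2 modifying enzymes and 2 other binders were called lower. The cause was not tested. With 3 arrays a group, the single-value tests between paralogues cannot pass 0.05.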
